A study of Homo sapiens with 120 samples.

Results

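Methyl methanesulfonate (MMS) and ethyl methanesulfonate (EMS) differ only in the alkyl group that they carry and transfer, a methyl or an ethyl group. The transcript changes that each caused after 24 h in TK6 cells, a long-established lymphoblastoid line of human B cells, were set against each other over all tested genes. The members are 12 of the 120 arrays of the series, chosen by their labels: 3 arrays each of cells given 320 µM MMS, untreated cells of the MMS set, cells given 4 mM EMS and untreated cells of the EMS set. The series compared formaldehyde with such DNA-damaging chemicals and with spindle poisons in TK6, at 3 doses of each chemical and after 4 h and 24 h, with untreated arrays belonging to each chemical's own set. The quantity of interest is a difference of 2 changes: treated minus untreated in the MMS set, minus treated minus untreated in the EMS set. A fixed difference between the sets cancels in it. The doses were not matched, since 4 mM is 12.5 times 320 µM in molar terms, so the alkyl group, the dose and the separate handling of the sets cannot be told apart in any difference reported here. This is 1 pair of compounds, so p-values were adjusted over genes and not over pairs.

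Alkyl methanesulfonates add their alkyl group to nucleophilic sites of DNA and of proteins. MMS reacts mostly with ring nitrogens of guanine and adenine, lesions that are removed mainly by base excision repair, while EMS places a larger share of its adducts on oxygen atoms such as that of guanine, which can mispair if not reversed. Unrepaired adducts stall replication forks and lead to strand breaks, and TK6 cells, which have functional p53, answer such damage with a broad p53 target programme, while alkylated and misfolded proteins call on heat shock factors.

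Each array gave log2 expression values, so that a difference of 1 is a 2-fold change, and the 12 array medians lay between 6.133 and 6.224. Of 19775 genes with a probe set of their own, 14023 reached a log2 value of 6.183 on at least 3 of the 120 series arrays. They were tested with limma on the 48 arrays of the MMS and EMS sets. Changes with an adjusted p under 0.05 are spoken of as called. The labels number the arrays of a group as experiments 1 to 3 and do not say whether these were separate cultures, so p-values measure the spread between these arrays, which may be technical. B cell markers were present on all 12 arrays: CD79A lay between 8.07 and 9.46, MS4A1 (CD20) between 10.93 and 11.79 and PAX5 between 11.02 and 11.68. CD3E of T cells (5.99 to 6.49), CD14 of monocytes (4.92 to 5.37) and EPCAM of epithelium (3.35 to 3.80) lay near or below the limit of 6.183, whereas the delta globin gene HBD lay between 7.06 and 9.98. In the full marker lists, 15 of 21 B cell identity genes reached the limit on all 12 arrays. So did 3 of 12 markers of T and NK cells and 1 of 9 of monocytes and granulocytes. For epithelium and fibroblasts it was 4 of 11, and for red blood cells 5 of 7. Markers of other cell types were thus not all dim. Before any treatment, 2253 genes (16.1%) differed between the untreated groups of the MMS and EMS sets, 672 higher and 1581 lower in the MMS set (29.8% higher, against 43.7% higher with quantile normalization repeated), none of them by 2-fold. That count was 1499 without the arrays of EMS experiment 2.

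A control of RNA integrity differed between the treated groups. The 3′ minus the 5′ probe set of beta-actin (ACTB) was 1.96, 1.59 and 2.08 on the log2 scale on the MMS-treated arrays, against 1.02, 0.94 and 0.86 on their untreated arrays. On the EMS-treated arrays it was 0.66, 0.70 and 0.63, against a mean of 0.52 ± 0.07 (SD, n = 3) on their untreated arrays. The MMS-treated arrays thus lay above all others, and those of the MMS set above those of the EMS set already without treatment. For GAPDH the means were 0.34 with MMS and 0.22 without, and 0.16 with EMS and 0.12 without. The part of this 3′ bias in the results below was not tested.

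**Figure D1:**
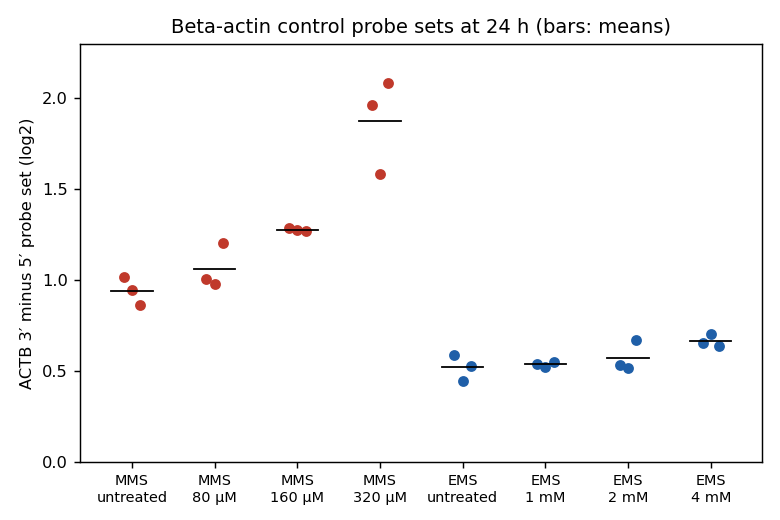
ACTB 3′ minus 5′ probe set (log2, vertical axis) on each 24 h array of the MMS and EMS sets, by dose, with bars at the means of 3 arrays. The mean is 1.88 at 320 µM MMS and 1.28 at 160 µM, and all EMS groups lie between 0.52 and 0.66.

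The responses to MMS and EMS ran largely in parallel, with MMS at this dose the larger of the pair. At 320 µM, MMS raised 4448 genes (31.7% of those tested) and lowered 4083 (29.1%), together 60.8%, and 4 mM EMS raised 3843 (27.4%) and lowered 3216 (22.9%), together 50.3%. Called changes went the same way in both for 5885 genes and opposite ways for 202. The difference itself was called for 3780 genes (27%), with the MMS change above the EMS change for 2121 (15.1%) and below it for 1659 (11.8%). All 24 h list counts of called differences below are to be read against these shares of 15.1% and 11.8%. Counts of list members that rose or fell are to be read against 31.7% and 29.1% for MMS. For EMS the shares that rose or fell are 27.4% and 22.9%. With quantile normalization repeated, 49% of the called differences lay above instead of 56.1%, and the median of all genes moved by -0.02. Differences of 2-fold or more were few, 51 above and 12 below. Among the 5885 genes called the same way, the change with MMS was the larger for 1989 and that with EMS for 257, and for 3639 the difference was not called. For 4254 of the 5885, and for 75.3% of all tested genes, the 95% interval of the difference lay within -0.5 to 0.5, which bounds the difference without showing that the compounds act alike. Across the 14023 genes the changes correlated with Pearson's r of 0.882. The ratio of the EMS change to the MMS change had a median of 0.676 over the 1129 called genes that moved by at least 1 with MMS. Choosing genes by their MMS change can itself lower this ratio. Of 1191 genes that moved by at least 1 with either chemical, the MMS change was the larger for 1019 and the EMS change for 172. These last values describe genes, which are not independent replicates.

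**Figure D2:**
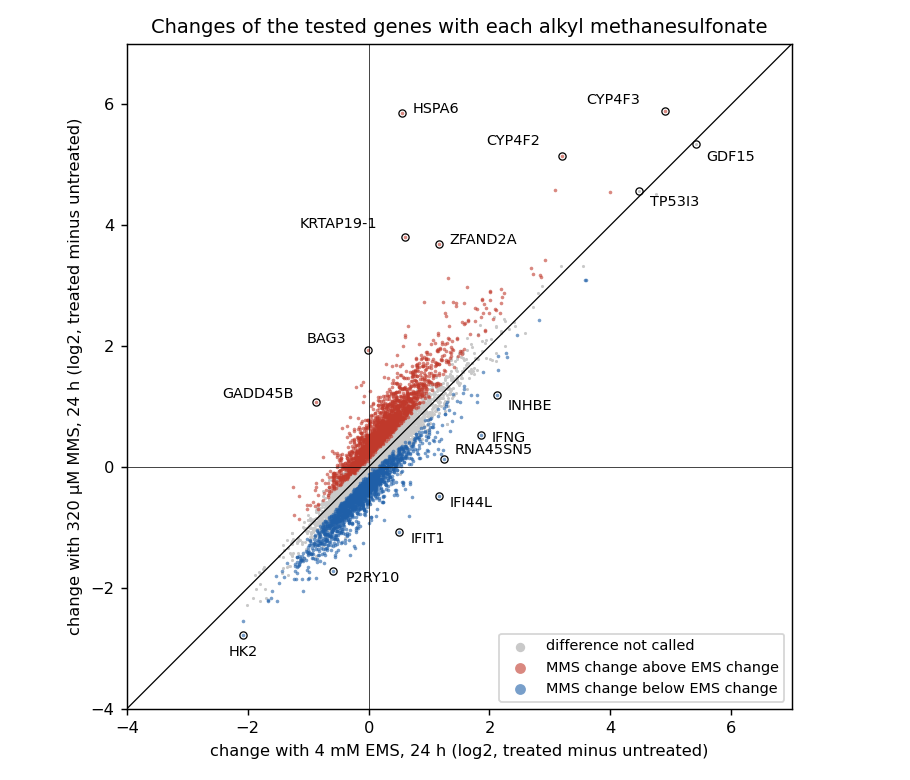
Change of each of the 14023 tested genes with 4 mM EMS (horizontal axis) and with 320 µM MMS (vertical axis) after 24 h, as log2 of treated minus untreated, coloured by whether the difference was called, with equality as the diagonal. GDF15 and TP53I3 lie on the diagonal, HSPA6 lies at 5.85 with MMS and 0.55 with EMS, and IFNG at 0.53 and 1.86.

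Several p53 targets rose strongly and by almost the same amount with MMS and EMS. GDF15, a secreted stress cytokine induced by p53, read 7.54, 7.49 and 7.34 in the untreated MMS set and 12.85, 12.72 and 12.81 with MMS. In the EMS set it read 7.67, 7.66 and 7.69 without treatment and 13.17, 13.04 and 13.04 with EMS. The rise was 40.5-fold with MMS and 42.5-fold with EMS, the 3 changes of each overlapped, and the difference was -0.07 ± 0.08 (SE) with a 95% interval of -0.24 to 0.10. TP53I3, a p53-induced oxidoreductase, rose by 4.56 and 4.48 (interval of the difference -0.15 to 0.31). RRM2B, the p53-induced subunit of ribonucleotide reductase, rose by 2.33 and 2.42 (interval -0.38 to 0.19). TP53INP1, a p53 cofactor in stress and autophagy, rose by 3.32 and 3.54 (interval -0.46 to 0.01). None of these 4 differences was called. They are among the 8 genes with the largest shared changes whose interval lay within -0.5 to 0.5, which also held LINC01588 (3.32 and 3.19), SPARCL1 (2.65 and 2.72), PXT1 (2.41 and 2.41) and DDIT3, described with the ATF4 genes.

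All 13 tested p53 targets of growth arrest and feedback rose with both chemicals, with a median of 2.25 for MMS and 2.01 for EMS. The difference was called above for 3 and below for 2 of the 13, against 15.1% and 11.8% of all tested genes, and its median was -0.04, against -0.01 for all genes. The 2 below became 0 without MMS experiment 2 and 1 without EMS experiment 1. CDKN1A (p21), the kinase inhibitor that holds cells in G1, read 12.93, 12.77 and 12.92 with MMS and 12.79, 12.80 and 12.77 with EMS. From untreated values of 10.61, 10.61 and 10.65 in the MMS set and 10.92, 10.86 and 10.79 in the EMS set, that is a rise of 2.25 and of 1.93. The 3 MMS changes lay above the 3 EMS changes (difference 0.32 ± 0.05, adjusted p = 2.15e-05), although the treated levels themselves overlapped. GADD45A, a stress sensor, rose by 2.55 and 2.17 (difference 0.39, adjusted p = 1.04e-06), and SERTAD1, a CDK4 regulator, by 2.76 and 2.01. MDM2, the ubiquitin ligase that degrades p53, rose by 2.33 and 2.11, and its difference of 0.22 (interval -0.02 to 0.47) was not called. Among its other probe sets, only a dim one with a mean signal of 5.48 had the difference called, at 1.24 (3.73 and 2.48). TRIM22 went the other way, with a rise of 1.34 with MMS and 1.57 with EMS (difference -0.23, adjusted p = 0.00249).

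Among 16 tested p53 targets of cell death, 14 rose with each chemical, and the difference was called above for 5 (31.2%, against 15.1% of all genes) and below for 2 (12.5%, against 11.8%). Without MMS experiment 3, EMS experiment 2 or EMS experiment 3 the 5 became 3, and without MMS experiment 3 or EMS experiment 1 the 2 became 1. PIDD1, which assembles the caspase-2 platform, rose by 2.55 with MMS and 1.99 with EMS (difference 0.57, adjusted p = 9.32e-07). AEN, a p53-induced nuclease, rose by 1.75 and 1.31. DRAM1, a lysosomal protein of p53-dependent autophagy, rose less with MMS, by 0.49 against 0.98 (difference -0.49, adjusted p = 3.47e-09), and BAX, the mitochondrial pore former, by 0.71 against 0.98. Of 13 tested p53 targets of repair and metabolism, 12 rose with MMS and all 13 with EMS. The difference was called above for 6 (46.2%, against 15.1%) and below for 2 (15.4%, against 11.8%). The 6 became 3 without EMS experiment 2 and 4 without MMS experiment 3. The 2 became 1 without MMS experiment 1, MMS experiment 2 or EMS experiment 2, and 3 without MMS experiment 3. DDB2, a damage recognition factor of nucleotide excision repair, rose by 2.54 and 1.90 (difference 0.64, adjusted p = 3.98e-07), and TIGAR, a regulator of glycolysis, by 2.20 and 1.68. FUCA1, a lysosomal fucosidase, rose by 3.09 and 3.58, from untreated means of 4.89 and 4.94, below the limit of 6.183, and its other probe set did not share the sign of the difference.

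The largest difference of a single gene was that of a heat shock gene. HSPA6, a heat shock protein 70 that is nearly silent without stress, read 6.85, 6.83 and 6.97 in untreated cells and 12.63, 12.79 and 12.77 with MMS, a 57.7-fold rise. In the EMS set it read 6.87, 6.88 and 7.09 without treatment and 7.33, 7.64 and 7.52 with EMS, a 1.46-fold rise. Every MMS-treated array lay far above every other array, and the difference was 5.30 ± 0.12 (adjusted p = 1.95e-28). Its probe sets may also detect the near-identical HSPA7.

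BAG3, a co-chaperone of HSP70 that directs damaged proteins to autophagy, read 11.22, 11.10 and 11.39 with MMS, against 9.40, 9.38 and 9.13 without. With EMS it read 9.19, 9.44 and 9.26, on both sides of its untreated arrays at 9.27, 9.36 and 9.29, with a mean of 9.30 in each group (difference 1.94 ± 0.09, adjusted p = 4.46e-18). ZFAND2A, a stress-induced proteasome adaptor also called AIRAP, rose by 3.69 with MMS (12.9-fold) and by 1.16 with EMS (2.24-fold). DNAJB1, the main HSP40 of the heat shock response, rose by 1.26 with MMS and changed by 0.03 with EMS (difference 1.23, adjusted p = 1.42e-15). SERPINH1, a collagen chaperone, rose by 0.96 and changed by 0.07.

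Of the 24 tested heat shock genes and chaperones, 13 (54.2%) had the difference called above and 1 below (0 without EMS experiment 1), and the list's median difference was 0.27. Not every chaperone had this pattern. HSPB1, a small heat shock protein, changed by -0.05 and 0.04 (interval of the difference -0.26 to 0.10), and HSP90AB1, the constitutive HSP90, fell by 0.37 with MMS and by 0.20 with EMS, with the difference called below. HSPB1 and, in the sentences that follow, HSPH1 and DNAJB4 were picked after their values were seen. HSPH1, a nucleotide exchange factor for HSP70, rose by 0.21 with MMS and changed by -0.09 with EMS. Its other probe sets changed by 0.04 and -0.30 with MMS, and neither had the difference called. DNAJB4, another HSP40, rose with both, by 2.11 and 1.47 (difference 0.65, adjusted p = 0.000426).

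Heat shock factors bind inverted repeats of GAA. In the RefSeq promoters of build GRCh38.p14, searched over 250 bases before the start site, the pair GAANNTTC or TTCNNGAA was present in 14 of 35 promoters of these genes (40%) and in 11.6% of all 35116 promoters. Both forms are their own reverse complement, so 1 search covers both strands, and the matches can overlap. Windows are shown for 3 of the genes described above that held a match, with the matches in capitals. HSPA6 is at chr1:161524346-161524492 on the plus strand, DNAJB1 at chr19:14518423-14518488 and ZFAND2A at chr7:1160346-1160381, both on the minus strand.
HSPA6: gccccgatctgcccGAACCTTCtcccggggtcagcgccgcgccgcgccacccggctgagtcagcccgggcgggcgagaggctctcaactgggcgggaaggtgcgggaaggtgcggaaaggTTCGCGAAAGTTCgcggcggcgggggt
DNAJB1: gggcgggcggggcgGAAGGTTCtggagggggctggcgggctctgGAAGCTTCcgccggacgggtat
ZFAND2A: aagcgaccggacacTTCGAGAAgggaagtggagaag
HSPA6 held 3 matches, DNAJB1 held 2 and ZFAND2A held 1, while the BAG3 window held none. A match describes the letters and is not a bound site.

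Other genes with a much larger rise after MMS included immediate early genes and genes of varied roles. EGR1, an early growth response factor, read 9.32, 9.32 and 9.10 with MMS and 7.34, 7.56 and 7.52 with EMS, from untreated values between 6.40 and 6.63 in both sets (difference 1.81 ± 0.14, adjusted p = 1.21e-12). FOS, a subunit of the AP-1 factor, rose by 1.18 with MMS and changed by -0.08 with EMS, and its partner JUN rose by 1.80 and 0.79. Of 27 tested immediate early genes, 9 (33.3%) had the difference called above and 2 (7.41%) below, against 15.1% and 11.8% of all genes, and the 2 became 1 without MMS experiment 2. The AP-1 motif TGANTCA was present in 0 of 25 promoters of these genes and in 6.57% of all promoters. CYP4F2, a fatty acid hydroxylase, rose by 5.15 and 3.20, and its relative CYP4F3 by 5.89 and 4.91 (difference 0.98, adjusted p = 2.94e-05), although probe sets of such close relatives can detect each other's transcripts. KRTAP19-1, a keratin-associated protein gene, was dim without treatment in both sets, between 3.28 and 3.56, and rose to between 7.11 and 7.38 with MMS and between 3.84 and 4.05 with EMS. DHRS2, a mitochondrial reductase, rose by 2.33 and 0.64, and KLHL15, an adaptor of a ubiquitin ligase, by 2.15 and 0.60. LOC389765 rose by 3.13 and 1.32 and CFAP96 by 2.18 and 0.61. FAM53A rose by 1.32 and changed by -0.21, but its other probe set did not share the sign of the difference. FOS, CYP4F3, KRTAP19-1, LOC389765, CFAP96 and FAM53A lay below the limit of 6.183 on all untreated arrays of both sets, and CYP4F2 on those of the MMS set. FOS, KRTAP19-1, LOC389765 and FAM53A lay below it with EMS too and, among the 12 arrays, reached it only with MMS. Their changes are measured from a dim baseline and may not give the true fold. HMOX1, the heme oxygenase of the oxidant response, rose by 2.42 and 1.64 (difference 0.78, adjusted p = 1.7e-06). Its list of oxidant and thiol defence, with 20 tested genes, did not share this lean. The difference was called above for 3 (15%) and below for 5 (25%), with median changes of 0.115 with MMS and 0.285 with EMS. With only the 12 arrays in the fit the 3 became 1 and the 5 became 3.

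**Figure D3:**
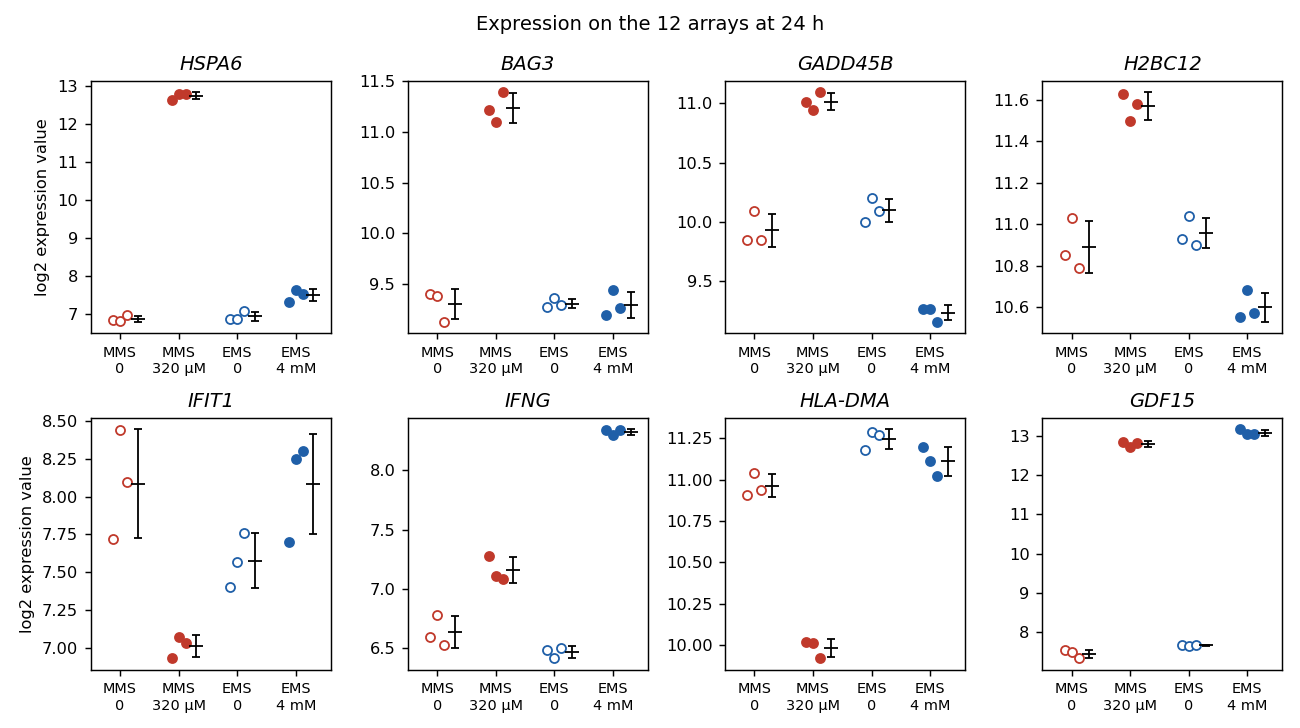
Log2 expression of 8 genes on the 12 arrays, with untreated arrays as open and treated arrays as filled points, and the mean and SD of 3 arrays as a bar beside each group. HSPA6, BAG3, GADD45B and H2BC12 are highest with MMS, IFNG is highest with EMS, IFIT1 and HLA-DMA are lowest with MMS, and GDF15 rises alike with both.

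Genes of DNA synthesis stood higher after MMS than after EMS. In bulk RNA, more cells in a phase of the cell cycle and more transcript per cell cannot be told apart. Of 37 tested DNA replication genes, 32 rose with MMS and 24 with EMS, and the difference was called above for 29 (78.4%) and below for 0. The median change was 0.53 with MMS and 0.20 with EMS, and the median difference 0.36. ORC1, the largest subunit of the origin recognition complex, read 9.94, 9.88 and 9.87 with MMS and 9.16, 9.24 and 8.96 with EMS, from 8.57 to 8.83 in both untreated groups (difference 0.84, adjusted p = 1.21e-07). RFC2, a subunit of the clamp loader, rose by 1.02 and 0.24, and GINS3 and GINS2, subunits of the replicative helicase, by 0.98 and 0.23 and by 0.84 and 0.15. PCNA, the sliding clamp, rose by 0.45 and 0.37, and its difference of 0.08 (interval -0.06 to 0.22) was not called. The E2F motif TTTCCCGC or its reverse complement GCGGGAAA was present in 7 of 39 promoters of these genes (17.9%) and in 1.39% of all promoters.

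Histone genes stood higher after MMS as well. Their transcripts are made mainly during DNA synthesis, and most lack a poly(A) tail. Of 17 tested histone genes, 12 rose with MMS and 3 with EMS, while 3 fell with MMS and 7 with EMS. The difference was called above for 15 (88.2%) and below for 0, with a median of 0.66. H2BC12, an H2B gene, read 11.63, 11.50 and 11.58 with MMS, above its untreated 10.85, 11.03 and 10.79. With EMS it read 10.55, 10.68 and 10.57, below its untreated 10.93, 11.04 and 10.90 (difference 1.04 ± 0.10, adjusted p = 2.93e-10). H3C2 rose by 1.35 with MMS, to between 6.37 and 6.73, and lay below the limit of 6.183 on all other arrays of the 12, so that its value of -0.13 with EMS is a change between dim signals. The linker histone gene H1-2 fell with both chemicals, by 0.33 and by 1.25. Histone genes are close copies, and their probe sets may detect more than 1 of them.

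Further repair lists had more differences called above than below. Of 23 tested genes of the Fanconi pathway and homologous recombination, the difference was called above for 13 (56.5%) and below for 1 (2 without MMS experiment 3 or EMS experiment 3). BRIP1, the FANCJ helicase, read 10.83, 10.59 and 10.80 with MMS and 9.58, 9.66 and 9.62 with EMS, from 8.54 to 8.76 in both untreated groups (difference 1.01 ± 0.08, adjusted p = 1.46e-12). EXO1, the nuclease that resects mismatches and breaks, rose by 1.79 and 0.78 (difference 1.01, adjusted p = 1.16e-11). Of 19 tested genes of nucleotide excision repair and bypass, 8 (42.1%) were called above and 1 (5.26%) below, DDB2 of the p53 lists among the 8. The count above was 13 without MMS experiment 2, 4 without MMS experiment 3, and 5 without MMS experiment 1 or EMS experiment 3. The bypass polymerase gene REV3L rose by 1.20 and 0.73, and RAD23B, a partner of the recognition factor XPC, fell by 0.97 and by 0.48. Among 18 tested checkpoint genes, 11 (61.1%) were called above and 1 (5.56%) below. Among the 11 were CDC25A, a phosphatase that drives entry into DNA synthesis (0.98 and 0.17), and TIPIN, a fork protection factor (0.57 and -0.13). The count above was 5 without MMS experiment 1, 6 without MMS experiment 3 and 7 without EMS experiment 1 or EMS experiment 3, and the 1 below became 2 without MMS experiment 3.

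Genes that act directly on alkylated bases were less uniform. Of 22 tested genes of alkylation and base excision repair, the difference was called above for 6 (27.3%) and below for 2 (9.09%). ALKBH3, a dioxygenase that removes methyl groups from single-stranded DNA and RNA, read 10.22, 10.22 and 10.27 with MMS and 9.46, 9.51 and 9.45 with EMS. Its untreated values ran from 9.04 to 9.38 in both sets, so that it rose by 1.05 and 0.30 (difference 0.75 ± 0.09, adjusted p = 9.22e-09). NEIL3, a glycosylase, rose by 1.21 and 0.63, and PARP2, a break sensor, by 0.74 and 0.21, whereas PARP1 fell by 0.81 and by 0.50. MPG, the glycosylase that excises methylated adenine, changed by -0.11 and -0.08, neither of them called (difference -0.02, interval -0.21 to 0.16). MGMT, the methyltransferase that reverses adducts on the oxygen of guanine, lay between 5.74 and 6.30 on all 12 arrays, at or near the limit of 6.183, and its difference was 0.02 (interval -0.27 to 0.31). In the mismatch repair list, MSH3 rose by 0.50 with MMS and changed by -0.02 with EMS, and MLH3 fell by 0.87 and by 0.34.

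Interferon-induced genes went the other way: several fell with MMS and rose with EMS. Of 25 tested members, 10 fell and 6 rose with MMS, where 29.1% of all genes fell and 31.7% rose. With EMS 1 fell and 16 rose, where 22.9% of all genes fell and 27.4% rose. The difference was called below for 16 (64%) and above for 0. The list's median change was -0.25 with MMS and 0.52 with EMS. IFIT1, which binds foreign RNA, read 6.93, 7.07 and 7.03 with MMS, below its untreated 7.72, 8.44 and 8.10. With EMS it read 7.70, 8.25 and 8.30, against 7.40, 7.57 and 7.76 untreated, a change of 0.51 that was not called (difference -1.59 ± 0.34, adjusted p = 0.000446). IFI44L read 7.70, 7.28 and 7.82 with MMS and 8.28, 8.72 and 9.09 with EMS. Its untreated values were 7.39, 8.42 and 8.44 in the MMS set and 7.12, 7.59 and 7.90 in the EMS set, and the untreated array of MMS experiment 1 was the lowest of its group for IFI44L, IFIT1, IFI44, IFIT3, OAS2 and ISG15. Its difference of -1.64 ± 0.40 (adjusted p = 0.00174) joins a rise of 1.16 with EMS to a change of -0.48 with MMS that was not called. Without the arrays of MMS experiment 1, 17 members had the difference called below, without those of MMS experiment 3 it was 14, and over all alternatives tried the count ran from 14 to 17.

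Further members had the same signs. IFI44 fell by 0.49 with MMS and rose by 0.71 with EMS, and IFIT3, a partner of IFIT1, fell by 0.28 and rose by 0.68. TNFSF10 (TRAIL), a death ligand induced by interferon and p53 that is no member of the list, read 7.28, 7.25 and 7.28 with MMS and 8.05, 8.54 and 8.80 with EMS. Its untreated ranges were 7.63 to 8.45 and 7.58 to 7.96, and its difference was -1.48 ± 0.26 (adjusted p = 2.25e-05). OAS2, an activator of antiviral RNA decay, fell by 0.87 and changed by 0.26. ISG15, a ubiquitin-like modifier picked after its values were seen, changed by -0.36 and rose by 0.60. Members whose difference was not called included TAP1, a peptide transporter (1.32 and 1.23), and IRF7, a factor that drives interferon genes (0.83 and 0.82). IFNG, which encodes interferon gamma and is no member of the list, rose with both but by 0.53 with MMS and by 1.86 with EMS. It read 8.34, 8.30 and 8.34 with EMS and 7.28, 7.11 and 7.08 with MMS, with no overlap (difference -1.33 ± 0.15, adjusted p = 4.25e-09).

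The interferon-stimulated response element is a pair of GAAA repeats, searched here as GAAA followed after any 2 bases by another GAAA, or the reverse complement TTTC and TTTC with the same gap, a motif added after the values were seen. It was present in 16 of 24 promoters of the list (66.7%) and in 3.02% of all 35116 promoters. Windows are shown for 4 genes named above that held it, all on the plus strand, with matches in capitals, while IFI44L held 2 matches in a longer window that is not printed: IFIT1 at chr10:89392493-89392543, IFIT3 at chr10:89327827-89327898, IFI44 at chr1:78649757-78649788 and ISG15 at chr1:1013370-1013413.
IFIT1: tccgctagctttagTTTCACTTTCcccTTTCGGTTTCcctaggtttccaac
IFIT3: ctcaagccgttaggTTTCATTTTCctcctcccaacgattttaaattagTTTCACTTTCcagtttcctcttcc
IFI44: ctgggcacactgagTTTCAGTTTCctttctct
ISG15: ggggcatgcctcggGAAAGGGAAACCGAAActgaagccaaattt
IFIT1, IFIT3 and ISG15 held 2 matches each, which overlap in ISG15, and IFI44 held 1.

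Most MHC class II genes fell with MMS, and fewer fell with EMS. These genes encode the machinery by which B cells present peptides to helper T cells. Of 12 tested members, 9 fell with MMS and 5 with EMS, and the difference was called below for 11 (91.7%) and above for 0, with median changes of -0.66 and -0.06. HLA-DRA, the alpha chain of the presenting molecule HLA-DR, read 12.95, 12.96 and 12.84 with MMS, below 13.64, 13.70 and 13.64 untreated. With EMS it read 13.66, 13.63 and 13.62, against 13.68, 13.71 and 13.69 (difference -0.69 ± 0.04, adjusted p = 1.61e-14). HLA-DMA, a peptide loader, fell by 0.98 and by 0.14, and CIITA, the master regulator of these genes, fell by 1.08 and by 0.45. HLA-DQA1 was the member whose difference was not called (0.14 and 0.13). The tested B cell identity genes had the difference called below for 6 of 18 (33.3%, against 11.8% of all genes) and above for 0 (against 15.1%). MS4A1 fell by 0.58 with MMS and rose by 0.24 with EMS (difference -0.82, adjusted p = 1e-08), and FCER2, the low-affinity receptor for immunoglobulin E, fell by 1.22 and by 0.69. In the plasma cell list, CD38 fell by 1.33 and by 0.22, and MZB1, a chaperone of antibody assembly, by 2.05 and by 1.59.

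The remaining large differences below included immune signalling and lymphoid genes. FLI1, an ETS factor of blood cells, read 7.55, 7.29 and 7.65 with MMS and 8.57, 8.80 and 8.66 with EMS, with untreated values from 8.59 to 8.86 (difference -1.18 ± 0.13, adjusted p = 6.41e-09). CXCL10, a chemokine induced by interferon, fell by 1.45 and by 0.31, and IL6, a cytokine, fell by 1.30 and by 0.25. P2RY10, a lysophospholipid receptor of lymphocytes, fell by 1.73 and by 0.60. A probe set for the ribosomal RNA precursor (RNA45SN5) rose by 1.24 with EMS and changed by 0.13 with MMS, a difference of -1.11. It read 9.86, 9.90 and 9.81 with EMS, against 8.61, 8.74 and 8.49 untreated. With MMS it read 8.46, 8.39 and 8.20, against 8.08, 8.39 and 8.19 untreated, so the untreated sets already differed.

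Mitotic genes had the difference called below more often than above. Of 40 tested members, 22 fell and 11 rose with MMS, against 17 and 12 with EMS. Of all genes, 29.1% fell with MMS and 22.9% with EMS. The difference was called below for 16 (40%) and above for 5 (12.5%, or 3 members without MMS experiment 3). The list's median change was 0.11, 0.09 and -0.21 over the rising MMS doses and 0.07, 0.11 and -0.05 over the EMS doses. CCNB1, the cyclin of mitotic entry, read 10.49, 10.28 and 10.43 with MMS and 11.39, 11.33 and 11.34 with EMS, from 11.76 to 11.96 in both untreated groups (difference -0.89 ± 0.07, adjusted p = 5.66e-13). AURKA, a spindle kinase, fell by 1.00 and by 0.19, and CDC20, an activator of anaphase, by 1.25 and by 0.46. Among the 5 called above were PTTG1 (securin; 0.77 and 0.40) and NEK2, a centrosome kinase (0.73 and 0.47). CDK1 rose by 0.43 and 0.44, and its difference was -0.01.

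**Figure D4:**
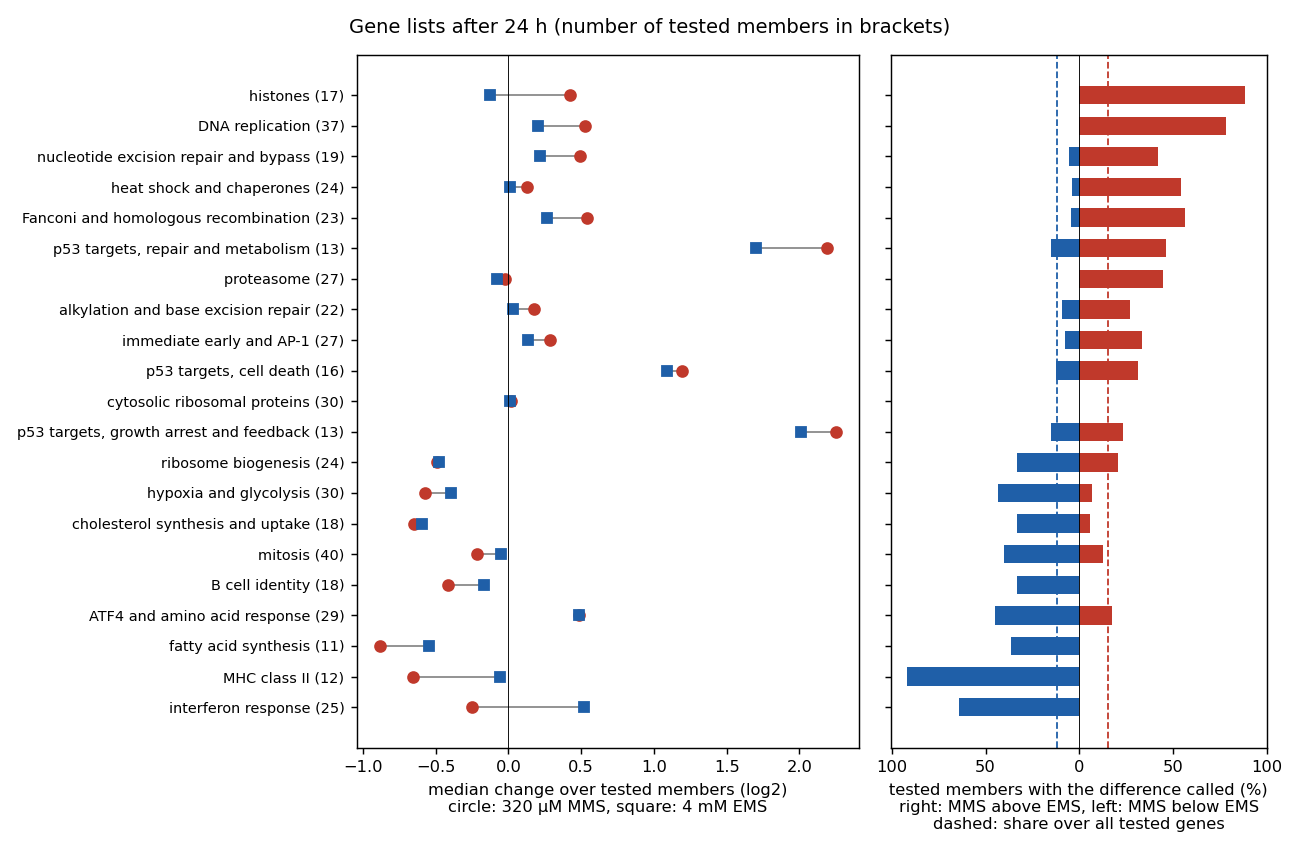
Left, median log2 change over the tested members of 21 gene lists with 320 µM MMS (circles) and 4 mM EMS (squares); right, percentage of members with the difference called above (right of 0) or below (left), with dashed lines at 15.1% and 11.8%, the shares over all tested genes. Histones and DNA replication stand at the top, interferon response and MHC class II at the bottom.

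Genes of the ATF4 programme, which answers amino acid and translation stress, were more often called below than above. Of 29 tested members, 16 rose with MMS and 21 with EMS, the medians were 0.48 for both, and the difference was called above for 5 (17.2%, against 15.1% of all genes) and below for 13 (44.8%, against 11.8%). The 5 became 3 without MMS experiment 1 or MMS experiment 3. DDIT3 (CHOP), a factor of prolonged stress, rose by 3.14 and 2.86, and ATF3 by 3.42 and 2.92 (difference 0.50, adjusted p = 0.000398). SLC3A2, the heavy chain of an amino acid transporter, read 11.00, 10.88 and 10.83 with MMS and 10.54, 10.47 and 10.46 with EMS, from 8.90 to 9.03 and from 9.26 to 9.44 untreated. INHBE, an activin subunit, rose less with MMS, by 1.18 against 2.12 (difference -0.93, adjusted p = 1.39e-08), and SLC7A11, the cystine transporter, changed by 0.14 with MMS and rose by 0.70 with EMS. Of 30 tested genes of hypoxia and glycolysis, 23 fell with each chemical, and the difference was called below for 13 (43.3%), or for 7 with only the 12 arrays in the fit. HK2, a hexokinase, fell by 2.77 and by 2.07 (difference -0.70, adjusted p = 1.29e-08). In fatty acid synthesis, SCD, the stearoyl desaturase, fell by 1.74 and by 0.98. The 30 tested ribosomal protein genes had 0 differences called by limma, or 3 above with quantile normalization repeated, with a median difference of 0.00. BAX, HSP90AB1, PARP1, TAP1, IRF7, HLA-DQA1, PTTG1, NEK2 and CDK1 were named as examples after their values were seen.

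For 202 genes the called changes were opposite, 99 up with MMS and down with EMS and 103 the reverse. GADD45B, a stress sensor related to GADD45A, read 11.01, 10.94 and 11.09 with MMS, above its untreated 9.85, 10.09 and 9.85. With EMS it read 9.27, 9.27 and 9.16, below its untreated mean of 10.10 ± 0.10 (SD, n = 3; difference 1.94 ± 0.09, adjusted p = 1.1e-18), and all 3 other probe sets of the gene had the difference called with the same sign. TOE1, a nuclease that trims RNA tails, rose by 0.82 and fell by 0.32, and JMJD6, a hydroxylase of splicing factors, rose by 0.81 and fell by 0.18. H2BC12L rose by 0.64 and fell by 0.45, and TBC1D32 rose by 0.56 and fell by 0.32. In the reverse direction, SAMD9L, an interferon-induced growth regulator, fell by 0.47 and rose by 0.47, APOL6 fell by 0.43 and rose by 0.46, and GPR84, a receptor of medium-chain fatty acids, fell by 0.46 and rose by 0.42.

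Lower doses at 24 h are given side by side, with no comparison between the chemicals. MMS changed 4517 genes (32.2%) at 80 µM and 6973 (49.7%) at 160 µM. EMS changed 3297 genes (23.5%) at 1 mM and 4736 (33.8%) at 2 mM. HSPA6 changed by 0.20, 2.86 and 5.85 over the rising MMS doses and by 0.12, 0.12 and 0.55 over the EMS doses. BAG3 changed by -0.04 and 0.12 at the lower MMS doses, neither called, before its rise of 1.93. GADD45B fell at the lower MMS doses, by 0.40 and by 0.63, and rose by 1.08 at 320 µM, whereas with EMS it fell at each dose, by 0.41, 0.63 and 0.86. The median of the interferon list was 0.18, 0.51 and -0.25 over the MMS doses and 0.27, 0.38 and 0.52 over the EMS doses. IFNG rose by 0.92, 1.36 and 0.53 with MMS and by 1.07, 1.39 and 1.86 with EMS. The MHC class II median was 0.07, -0.13 and -0.66 with MMS and 0.08, 0.12 and -0.06 with EMS, and the histone median was -0.16, 0.10 and 0.42 and then -0.24, -0.26 and -0.13. The median of the p53 arrest genes grew with every dose, through 1.07, 1.86 and 2.25 with MMS and 0.97, 1.28 and 2.01 with EMS. Several signs that set 320 µM MMS apart from 4 mM EMS were thus not those of the lower MMS doses.

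**Figure D5:**
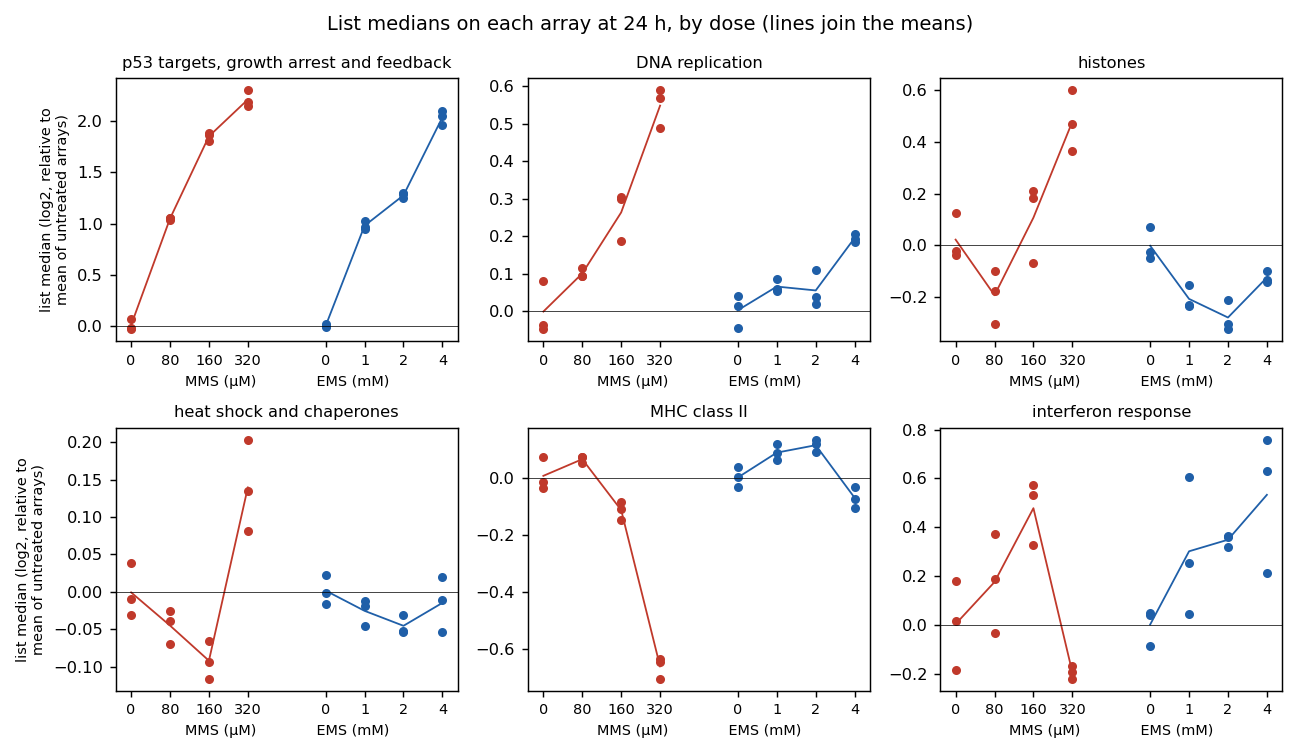
Median log2 value of 6 gene lists on each 24 h array, relative to the mean of the untreated arrays of its set, by dose of MMS (µM) and EMS (mM), with lines joining the means of 3 arrays. The p53 list rises at every dose of both, while the interferon list has its highest MMS mean at 160 µM and lies below 0 on all 3 arrays at 320 µM.

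After 4 h at the same doses, the difference was called for 1029 genes (7.34%), and for 1890 genes (13.5%) it differed between 4 h and 24 h (1215 without MMS experiment 1 and 1227 without EMS experiment 2). By then MMS had changed 31.8% and EMS 9.38% of the tested genes. Of the 24 heat shock genes, 7 had the difference called above and 0 below at 4 h, where 3.17% and 4.17% of all genes were. HSPA6 had risen by 1.89 with MMS and changed by 0.19 with EMS, and BAG3 had risen by 1.39 and 0.34. HMOX1 had risen by 2.70 with MMS and 0.52 with EMS, a difference of 2.18 that was larger than at 24 h (change of the difference from 4 h to 24 h -1.40, called). Of the 29 ATF4 genes, 18 had the difference called above and 0 below at 4 h. The histone and MHC class II lists had 0 differences called at 4 h in either direction, with median differences of -0.003 and -0.02.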

How the data were processed

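Total RNA of TK6 cells was hybridised to arrays with 54675 probe sets. The authors deposited log2 signals, and the submitters' processing notes name RMA as the tool. Its version, and which arrays were processed jointly, are not given in the sources used here. Gene names came from the platform's annotation: 41091 probe sets had 1 symbol, 1801 several and 11721 none. Genes without a single-symbol probe set were not analysed here. The probe set with the highest mean over the 120 series arrays stood for a gene. The limit of 6.183 was passed by 14023 of 19775 genes on at least 3 of those arrays, which include the other chemicals.

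A limma model (limma 3.58.1, R 4.3.3) with a mean for each of 16 groups was fitted to 48 arrays, two-sided, with Benjamini-Hochberg adjustment over all tested genes and a threshold of 0.05; intervals are 95%. All adjusted p-values are from it. Tested on simulated data for the 24 h difference over 14023 genes, it recovered 68% of 100 genes changed by 0.5 and 100% of 100 changed by 1, with 16 false calls. The simulated noise was independent for each gene and array, and no other genes were changed. It held no 3′ bias, no difference between the sets and far fewer changed genes than were called here. These rates may therefore not hold for the real arrays. Array precision is limited by the 3 arrays per group. Over all pairs of the 48 arrays the correlation reached at most 0.99829, and 0 pairs were identical. Summaries used python 3.11.15, numpy 2.4.6, pandas 2.3.3 and scipy 1.17.1, and plots matplotlib 3.10.9.

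Members and lists were chosen with earlier results of these data known. Named genes were the 12 largest called differences each way whose changes did not overlap, the 6 largest each way among genes called in opposite directions, the 8 largest shared changes with an interval within -0.5 to 0.5, up to 4 per list with the largest called difference, and a panel of pathway genes. Alternatives were a block on the experiment number, no filter, the mean of probe sets, quantile normalization repeated, only the 12 arrays, a prior variance following the signal, and leaving out each experiment.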

Additional observations from a re-analysis of the deposited data

Results flagged for a closer look

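For 81 of the 14023 tested genes the difference between MMS and EMS was called in opposite directions at 4 h and 24 h. Its change between times was also called by limma for these genes. The 6 with the largest change between times are given here. INHBE, the activin subunit of the ATF4 programme, moved by -2.28 (adjusted p = 2.85e-13), from 1.35 at 4 h to -0.93 at 24 h. SLC7A11, the cystine transporter, moved by -1.11 (adjusted p = 8.32e-08), from 0.56 to -0.56. MYLIP, a ubiquitin ligase that degrades lipoprotein receptors, moved by 1.26 (adjusted p = 4.87e-10), from -0.46 to 0.80, and MBD5, a methyl-CpG binding domain protein, by 1.23 (adjusted p = 2.38e-07), from -0.94 to 0.30. OR7D2, an olfactory receptor gene, moved by -1.18 (adjusted p = 0.000178), from 0.62 to -0.56. N4BP2L1 moved by -1.16 (adjusted p = 4.45e-05), from 0.69 to -0.47.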

How the results depend on the processing

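The 24 h difference was called for 3235 to 4441 genes under the block, no filter, the mean of probe sets, quantile normalization and the other prior variance, for 2533 with only the 12 arrays, and for 3019 to 4099 when an experiment was left out. Of the 3780 calls, 3777 remained with the replicate block (4343 calls), 3632 with quantile normalization and 2486 with only the 12 arrays. Same-numbered treated and untreated arrays had deviations correlated at 0.078, -0.19 and -0.282 in the MMS set and at -0.11, 0.304 and 0.189 in the EMS set, so they were taken to share only a number. Leaving out an experiment gave 7589 to 8782 genes for MMS, 6168 to 7207 for EMS, 1499 to 2378 for the untreated sets and 1215 to 1874 for the difference between times; the untreated sets differed for 999 with only the 12 arrays, which leaves fewer degrees of freedom. Of 171 called differences of named genes, 17 were lost with only the 12 arrays, 11 with the mean of probe sets, 4 to 9 without an experiment, 2 with quantile normalization, 1 without the filter and 0 with the block. The sign turned when single experiments were left out, and the cause was not tested, for LINC01588 (-0.018 to 0.302), SPARCL1 (-0.144 to 0.013), PXT1 (-0.107 to 0.149), RRM2B (-0.287 to 0.054), MPG (-0.116 to 0.057), MGMT (-0.045 to 0.083) and HSPB1 (-0.144 to 0.036). With the mean of probe sets it turned for MSH6 (-0.006) and POU2AF1 (0.144). MGMT, near the limit of 6.183, is bounded by its dim signal.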

Other observations

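Further lists described housekeeping of proteins and energy. Of 27 tested proteasome genes, the difference was called above for 12 (44.4%, against 15.1% of all genes; 5 with only the 12 arrays in the fit) and below for 0, with a median change of -0.02 with MMS and -0.08 with EMS, and 0 of them were called at 4 h. Of 35 tested genes of oxidative phosphorylation, 11 (31.4%) were called below and 2 (5.71%) above, against 11.8% and 15.1% of all genes. The 11 became 7 without EMS experiment 1 or EMS experiment 2 and 4 with only the 12 arrays in the fit, and the 2 became 1 without MMS experiment 1, EMS experiment 2 or EMS experiment 3 and 4 with quantile normalization repeated or the block. Of 24 tested ribosome biogenesis genes, 21 fell with MMS and 22 with EMS (against 29.1% and 22.9% of all genes), with medians of -0.49 and -0.48. The difference was called above for 5 (20.8%) and below for 8 (33.3%) of them. With only the 12 arrays in the fit these counts became 1 and 4. Of 18 tested genes of cholesterol synthesis and uptake, 13 fell with each chemical, with medians of -0.65 and -0.60. Their difference was called above for 1 (5.56%) and below for 6 (33.3%). The 6 became 3 without EMS experiment 3 or with only the 12 arrays in the fit. Of 24 tested NF-kappaB targets, the difference was called below for 9 at 24 h (37.5%, against 11.8% of all genes) and for 13 at 4 h (against 4.17% of all genes), where the list's median difference was -0.27.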
